A study of Mus musculus with 15 samples.

Results

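DNase-seq hotspot lists of Ikzf KO macrophages after 8 h of lipopolysaccharide (LPS) were set against those of the same genotype without LPS. The comparison rests on 4 of the series' 15 libraries: KO 0 h replicates 1 and 2, and KO 8 h replicates 1 and 2. All 4 came from bone marrow derived macrophages of strain C57BL/6J with the genotype labelled Ikzf KO, treated with 10 ng/ml LPS for 0 or 8 h and digested with DNase at 80 U by their titles. Also drawn on, as readouts the comparison did not use, were the 2 KO libraries at 3 h and, at 0 and 8 h, the wild type (WT) libraries (2 per time, 80 U in replicate 1 and 100 U in replicate 2) and the littermate control (1 per time, 80 U). The control lists of 3 h entered only where presence in all 9 control lists is given or 3 h is named. The labels do not say which Ikzf allele was deleted, at which age mice were used, or whether replicates came from separate mice or cultures, so any p-value reflects only how far these libraries differ, and that spread may be technical. Neither the targeted locus nor macrophage marker genes were checked, because no annotation of the lists' mouse build (mm9) was used here. For the same reason regions are named by position and not by gene.

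LPS, from the envelope of Gram-negative bacteria, is sensed by macrophages through Toll-like receptor 4. The receptor activates NF-kB and interferon regulatory factors, which bind at enhancers and promoters of cytokine, chemokine and interferon-response genes. Some of these elements are open before stimulation, held by lineage factors such as PU.1, and others open only with the signal. Ikaros, encoded by Ikzf1, is a zinc finger protein best known in lymphocytes, where it recruits chromatin remodelling and deacetylase complexes and can both repress and activate its targets. DNase I digests open chromatin readily, and a hotspot is a stretch with locally dense DNase tags.

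On chromosomes 1 to 19 the deposited lists held 107045 and 108292 hotspots at 0 h and 120507 and 127374 at 8 h. Each list was cut to the 107045 hotspots with the highest tag density (MaxD, the density at a hotspot's highest point), and a hotspot's place in that order is its rank, with rank 1 the strongest. The cut took no hotspot from KO 0 h replicate 1, 1247 from 0 h replicate 2, 13462 from 8 h replicate 1 and 20329 from 8 h replicate 2. The last hotspot kept had a MaxD of 0.318 in 0 h replicate 1, 1.28 in 0 h replicate 2, 1.67 in 8 h replicate 1 and 1.66 in 8 h replicate 2, and in the 3 shortened lists the first hotspot left out had the same MaxD as the last one kept. Kept hotspots covered 88.7 and 87.0 Mb at 0 h and 100.03 and 103.6 Mb at 8 h. The 8 h libraries were also the stronger ones: at rank 15000 by Z-score the resting pair reached a Z-score of 26.3 and 25.5, and the LPS pair 36.1 and 40.7. Relative depth, if the spacing of the density values gives it, was 0.745 and 0.741 without LPS against 0.850 and 1 after it. Depth and LPS therefore cannot be told apart at the level of whole lists, and lists of the same time resembled each other more at 8 h (Jaccard index of shared base pairs 0.720) than at 0 h (0.636), with 0.576 to 0.587 between times.

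Merging the 4 lists gave 179958 union regions. Of these, 11512 were listed by both 8 h libraries and by no 0 h library (6.4% of all union regions), against 3443 listed by both 0 h libraries and by no 8 h library (1.91%). The former are called regions at 8 h only, or entering regions, and the latter regions at 0 h only, or leaving regions. Another 61659 regions (34.3%) were in all 4 lists and are called shared regions. The largest class, 86117 regions, was in 1 list alone. Those single-list regions were more numerous in the 0 h lists (25610 and 26163) than in the 8 h lists (17428 and 16916), so the surplus of entering over leaving regions went with a lower agreement of the 0 h lists. Lists of equal length largely fix the balance: with 1 library per time the ratio of entering to leaving regions was 1.07 (36586 to 34088, without replicate 1) and 1.05 (35251 to 33642, without replicate 2). The surplus is therefore not read as a direction of change. Both counts rest on both libraries of a time: with 1 library left out they ran from 15169 to 29962 and from 4962 to 30951, and without either 0 h library more regions were at 0 h only (30951 and 29338) than at 8 h only (15888 and 15169).

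The surplus of entering regions was larger when the weaker hotspots were included, and most regions of either class were weak. With each list cut to 0.5 times the length, 5375 regions were at 8 h only and 3907 at 0 h only, a ratio of 1.38 against 3.34 at full length. Regions at 8 h only had a median mean rank of 67009 in the 8 h lists, and 27.1% of them lay in the stronger part of those lists by mean rank (above the middle of the list). Of these regions 186 (1.62%) had a mean rank of 20000 or better, and 22 had one of 10000 or better. Regions at 0 h only were weaker still, with a median mean rank of 70198 and 12 regions at 20000 or better. For comparison, 29.8% of the regions in all 4 lists had a mean rank of 20000 or better.

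Entering regions were absent from the 0 h lists as deposited as well, whereas some leaving regions were below the cut at 8 h. Of the 11512 regions at 8 h only, 11505 were in neither deposited 0 h list, which is nearly fixed by the cut because it removed at most 1247 hotspots there. Of the 3443 regions at 0 h only, 3120 (90.6%) were in neither deposited 8 h list, 277 were in 1 and 46 in both. Entering regions were longer, with a median of 697 bp (quartiles 572 and 884 bp) against 583 bp (469 and 705 bp) for leaving regions. Hotspots of the deposited 8 h lists were longer in general (medians 683 and 681 bp, against 649 and 628 bp at 0 h). The part of this in the difference was not tested. Regions in all 4 lists, which merge the hotspots of 4 libraries, had a median of 1165 bp.

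**Figure D1:**
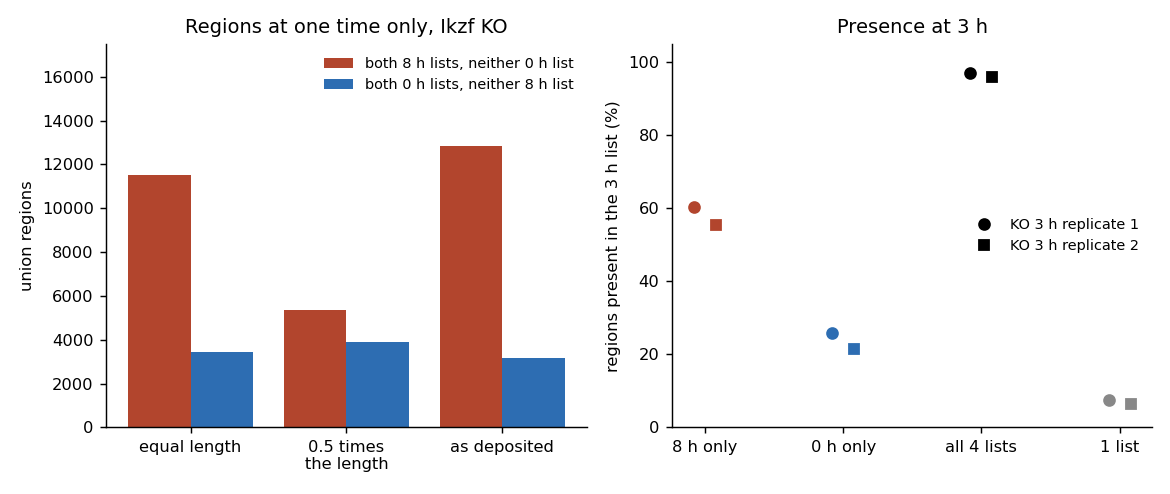
Left, number of union regions (y axis) in both KO lists of one time and in neither of the other, for lists of equal length, lists of 0.5 times that length and lists as deposited. Right, percentage of the regions of each class (y axis) found in each KO 3 h list of the same length, 1 point per library. The surplus of entering regions is smallest in the short lists (5375 against 3907) and goes with the lower agreement of the 0 h lists. At 3 h, 60.3% and 55.5% of the entering regions are found against 25.7% and 21.6% of leaving regions.

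The 3 h libraries, which had no part in the choice of regions, separated the classes. Of the regions at 8 h only, 45.8% were in both 3 h lists of the same length (5270 regions, Wilson 95% interval 44.9 to 46.7, counting error only), 2786 were in 1 and 3456 (30.0%) were in neither. Of the regions at 0 h only, 11.2% were in both 3 h lists (interval 10.2 to 12.3) and 63.8% in neither. Single-list regions were in both 3 h lists in 2.56% of cases, and regions in all 4 lists in 94.3%. Most entering regions were thus in at least 1 list at 3 h, and most leaving regions were in none. The 3 h libraries had relative depths of 0.848 and 0.826, nearer to the 8 h libraries than to those at 0 h, and the part of depth in these shares was not tested.

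Entering regions already listed at 3 h were the stronger ones at 8 h. The 5270 regions in both 3 h lists had a median mean rank at 8 h of 56334 and a median length of 824 bp. In the 3456 regions in neither 3 h list the values were 76948 and 604 bp. Of the 186 entering regions with a mean 8 h rank of 20000 or better, 97.8% were in both 3 h lists, at median ranks of 24166 and 22988 there against 15356 and 15055 at 8 h. The share was 76.9% for the 2390 regions with mean ranks beyond 20000 and up to 50000, and 36.4% for the 8936 weaker ones.

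The strongest entering region was chr1:135188037-135189564, 1528 bp long, at rank 1795 in 8 h replicate 1 and 1453 in replicate 2. It was in neither 0 h list, at ranks 8922 and 6163 in the 3 h lists, and no deposited control list (9 in all) held it. Next came chr8:64039681-64042189, at ranks 2145 and 1781 at 8 h after 10899 and 9071 at 3 h. Unlike the first, it was listed in all 3 control libraries at 8 h and in none at 0 h.

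On chromosome 17, the region at 34998604 to 35000299 stood at ranks 2325 and 2783 at 8 h and at 14440 and 11419 at 3 h. All 3 control libraries listed it at 3 h and at 8 h, and none did at 0 h. The region chr5:66432103-66433447 held ranks 3410 and 4618 at 8 h and 17434 and 8314 at 3 h, so that the 3 h libraries differed by more than those at 8 h. In each of these regions both 8 h ranks were better than both 3 h ranks.

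The move from 3 h to 8 h was small at chr7:148158962-148160303, with ranks 7364 and 7243 in the 3 h lists and 5153 and 4833 in the 8 h lists. It was larger at chr2:129141247-129142420, from 18277 and 14185 to 5354 and 5221. Both regions were listed in all 3 control libraries at 8 h and in none at 0 h. A region 648 bp long near the first assembled bases of chromosome 11, at 3005328 to 3005975, was the only one of the 12 strongest entering regions that was in neither 3 h list, with ranks of 6143 and 6646 at 8 h. Its place among the strongest holds for tag density only, because its mean rank of 6395 by density became 84606 by Z-score.

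The other 5 of the 12 strongest entering regions were on chromosomes 12 (8714193 to 8715354), 9 (66012849 to 66014221), 4 (144863438 to 144865203), 19 (29164378 to 29166079) and 6 (54907271 to 54908506), with mean 8 h ranks of 6411 to 8607. Across all 12, no control library listed any at 0 h, 8 were listed by the 3 control libraries together at 8 h, and 2 were in no control list at any time. For all named regions, control presence refers to the deposited lists, which were longer at 8 h than at 0 h in each series. It therefore gives no direction of change in controls. Ranked by Z-score, the 11 regions other than the one at the start of chromosome 11 had mean 8 h ranks of 999.5 to 20141.

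The strongest leaving regions were of another kind. Of the 8 with the best 0 h ranks, 5 lay within the first part of chromosome 11, between 3030749 and 3091461, and were 317 to 576 bp long. These 5 were strong by density and weak by Z-score: their mean 0 h ranks were 5878 to 13129 by density and 65340 to 90956 by Z-score, whereas the other 3 went from 10445 to 15277 by density to between 18933 and 27059. The foremost by density was chr11:3083665-3084164, with resting ranks of 6505 and 5250 and 3 h ranks of 11457 and 6042, and absent from both 8 h lists. The union held 41 regions in the stretch of chromosome 11 from 3005328 to 3198802, of which 33 were in all 4 lists, 5 were at 0 h only and 1 was at 8 h only. Without that stretch the counts over the genome were 11511 and 3438. The remaining 3 were chr11:69502982-69503888 (ranks 13885 and 7004 at 0 h, in neither 3 h list), chr17:84470778-84472032 (13127 and 17088 at 0 h, and 52160 in 1 of the 3 h lists) and chr15:77761768-77762773 (13095 and 17458 at 0 h, and 50190 in the other 3 h list). The littermate library at 8 h listed each of these 3, and neither WT library did.

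Shared regions also changed order. Ranks were tested in the 61659 regions in all 4 lists as minus log2 of the rank of a region's best hotspot, so that a shift of 1 means a rank improved by a factor of 2 (limma with a variance trend, Benjamini-Hochberg adjustment over all 61659). At 8 h 7645 regions moved up (12.4% of those tested) and 9571 moved down (15.5%) at an adjusted p under 0.05. With 2 libraries a side the spread is mostly pooled over regions (24.4 degrees of freedom), and the counts were 4841 up and 4351 down without KO 8 h replicate 2, and 5331 and 5234 without KO 8 h replicate 1. By more than 2 on the log2 scale, a factor of 4 in rank, 597 regions moved up and 132 moved down. Tested regions had to stay within rank 107045 in every list, so those weak at rest had little room to fall. The 2 numbers therefore cannot say which direction reached further. The median shift of risen regions was 0.99 (quartiles 0.76 and 1.37) and that of fallen regions -0.82 (-1.04 and -0.69), with a median standard error of 0.23 in each group. Ranks are relative, so an entering region pushes others down, and the median shift of all shared regions was -0.10. Centred on the median, 8223 regions moved up and 8606 down.

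The time difference was wider than the replicate differences. The SD over shared regions was 0.65 for 8 h minus 0 h, 0.36 between the 0 h replicates and 0.30 between the 8 h replicates. Differences beyond 2 in either direction occurred in 3 regions between the 0 h replicates (2 above, 1 below) and in 0 between the 8 h replicates. Shifts of the 2 replicate numbers, which share no library, had a Pearson r of 0.77 across the 61659 regions, a description across regions of the same libraries. Both 8 h ranks were better than both 0 h ranks in 15729 shared regions (25.5%) and worse in 23547 (38.2%).

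**Figure D2:**
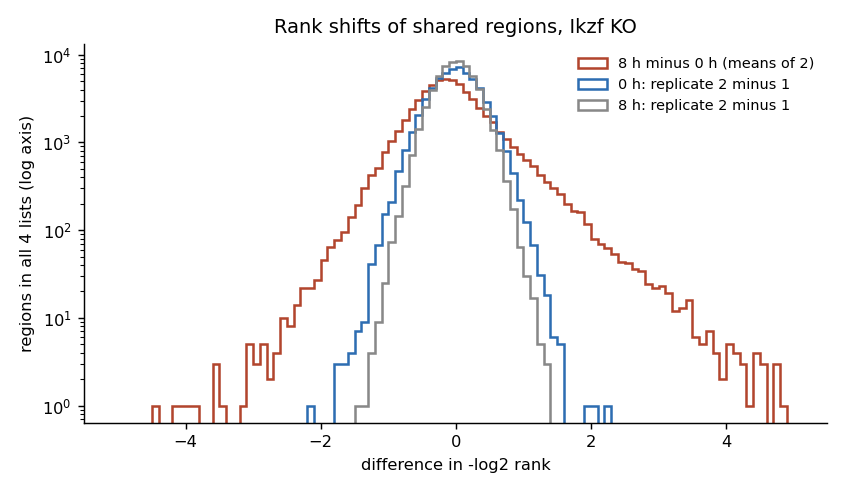
Number of regions in all 4 lists (y axis, log scale) by difference in minus log2 rank (x axis), for the mean of the 2 KO 8 h libraries minus the mean of the 2 KO 0 h libraries and for replicate 2 minus replicate 1 at each time. The time difference reaches beyond 4 on the upper side, where 597 regions exceed 2, whereas the replicate differences hold 2 such regions at 0 h and 0 at 8 h. The lower side is limited, because a region that fell out of a list is not shown.

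Among the 8 regions with the largest moves up, chr1:162299785-162304135 went from ranks 68962 and 59652 at 0 h to 2149 and 2327 at 8 h. Its shift was 4.84 (SE 0.24, limma adjusted p = 1.9e-12), a factor of 28.7 in rank, and at 3 h it already stood at 3702 and 3575. The region chr5:105720828-105723885 moved from 62388 and 58580 to 2169 and 2176 (shift 4.80, SE 0.23). Both lay in the weaker part of the resting lists, and WT and littermate lists held them at 3 h and 8 h and not at 0 h.

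A pair of regions on chromosome 10 was stronger at 3 h than, or as strong as, at 8 h. At 36865170 to 36866258 the resting ranks of 27258 and 28752 turned into 626 and 552 by 3 h, followed by 1070 and 1065 at 8 h. At 18796925 to 18798589 27350 and 28776 turned into 1166 and 1211, followed by 1244 and 927. In the first, both 3 h ranks were better than both 8 h ranks, and in the second the times overlapped.

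Later movement was seen at chr1:173801086-173803163, where ranks of 51222 and 46174 at rest became 18604 and 16362 by 3 h and 1970 and 2048 by 8 h. The 3 control libraries listed it at 8 h, and no control did at 0 h or 3 h. A region on chromosome 8 at 106644626 to 106646408 moved from 33777 and 28144 to 1293 and 1336 (shift 4.55, SE 0.24) and was absent from each of the 9 control lists.

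Strong moves also occurred among sites that were prominent at rest. The region chr3:142281061-142285239, 4179 bp long, went from ranks 2532 and 2563 at 0 h to 137 and 81 at 8 h, and chr6:124427095-124429263 from 3807 and 3212 to 126 and 203. Both were in all 9 control lists. Their 3 h ranks (237 and 165, and 702 and 597) lay between those of 0 h and 8 h.

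The largest moves down started from strong resting sites, which the choice largely fixed. A region could fall this far and still be within rank 107045 only from a strong start. The region chr11:114711776-114714981 fell from ranks 808 and 1198 at 0 h to 23868 and 20325 at 8 h (shift -4.48, SE 0.26, limma adjusted p = 2.2e-11). On the same chromosome, chr11:114763987-114765138 fell from 1399 and 1288 to 21660 and 17914. At 3 h this pair stood at 9200 and 10824 and at 5770 and 6556, between rest and 8 h.

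In the other 6 of the 8 largest moves down, 3 h ranks were already far below those at rest. The region chr5:64727385-64729327 had resting ranks of 2049 and 2018, 3 h ranks of 33612 and 33308, and 8 h ranks of 32397 and 37045. At chr2:166086448-166088181 the ranks were 2622 and 2956, then 48685 and 37640, then 40728 and 57143. At chr7:128660058-128661655 they were 4331 and 5429, then 54219 and 46591, then 81406 and 64767. In the first and second of these, the 3 h and 8 h ranks overlapped, and in the third both 8 h ranks were worse.

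The remaining 3 were chr2:133320515-133322058, chr2:164681610-164684317 and chr3:104326830-104328251, with shifts of -3.53, -3.52 and -3.51. As deposited, all 3 control libraries of 8 h listed 7 of the 8 falling regions. Neither WT list of 3 h held any of the 8, whereas the littermate list of 3 h held most of them. The control lists differ in length, so presence in them gives no direction. All 16 of the largest moves kept their direction in each alternative that gave them a value. Where every library was kept, the limma adjusted p of each such value was under 0.05. The 16 were chosen for their size in the same libraries, which every alternative reuses, so both results were largely fixed by the choice. Some of the 16 had no value when the lists were cut shorter.

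**Figure D3:**
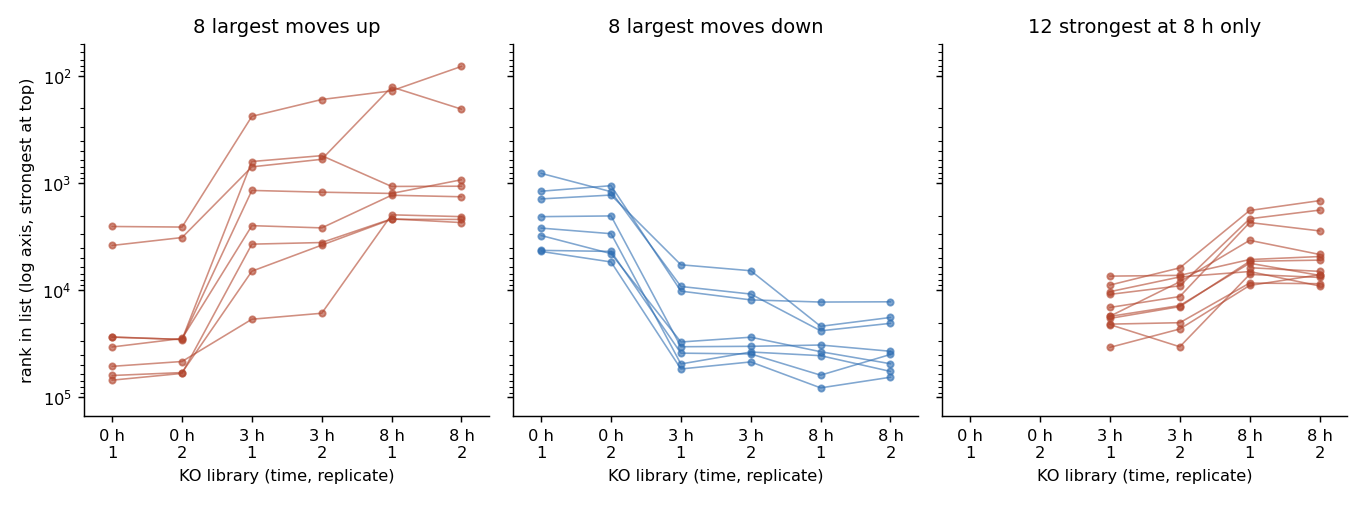
Rank in the equally long lists (y axis, log scale, strongest at the top) in each KO library (x axis, time and replicate) for the 8 shared regions with the largest moves up, the 8 with the largest moves down and the 12 strongest regions at 8 h only. Each line is 1 region, and a missing point means that the region was not in that list. Risen regions reach ranks 81 to 2327 at 8 h, and fallen ones start at ranks 808 to 5429.

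Over all risen and fallen regions, most of the move was visible at 3 h. Median ranks of the 7645 risen regions were 33850 and 33921 at rest, then 18118 and 17449 by 3 h, then 15259 and 14904 by 8 h. Median ranks of the 9571 fallen regions were 19616 and 19535, then 32023 and 33050, then 38301 and 39014. Both 3 h ranks were better than both 0 h ranks in 80.4% of the 7612 risen regions that were in both 3 h lists, and worse in 81.8% of the 8886 such fallen regions. In the 41636 such regions that did not pass the test, they were better in 20.4% and worse in 28.3%. Part of the high shares in risen and fallen regions follows from choosing them on the 0 h ranks that enter both comparisons. From 3 h to 8 h, which shares no 0 h library, both 8 h ranks were better than both 3 h ranks in 52.0% of risen regions and worse in 13.4%, although the 8 h ranks did help to choose them. The shares were 11.2% better and 44.5% worse in fallen regions. They were 21.7% and 24.6% in regions that did not pass the test.

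Accessible stretches widened where ranks rose. In risen regions the hotspots covered a median of 990 and 969 bp at 0 h and 1367 and 1392 bp at 8 h. In fallen regions they covered 1149 and 1126 bp at 0 h and 1008 and 1034 bp at 8 h. In regions that did not pass the test the values were 911 and 898 bp, and 948 and 973 bp. Both 8 h libraries covered more of the region than either 0 h library in 84.9% of risen regions, 14.0% of fallen regions and 17797 of the 44443 other shared regions. Covered length was not used in ranking, but it comes from the same hotspots.

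By mean rank over the 4 lists, moves up were rarest in the weakest group. Shared regions were divided into 5 groups of equal size by their mean minus log2 rank over the 4 lists. In the strongest group 18.6% rose and 20.8% fell, in the middle group 14.5% and 14.4%, and in the weakest 2.74% and 11.9%. The grouping uses the ranks that were tested, and these shares are a description. A region weak at rest that rose leaves the weakest group through its 8 h ranks, so the groups do not give strength at rest. Median resting ranks were 33850 and 33921 in risen regions, against 34627 and 34773 in shared regions that did not pass the test.

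Entering regions lay near risen regions more often than leaving regions did. Of the regions at 8 h only, 36.2% were within 25 kb of a shared region that rose (Wilson 95% interval 35.3 to 37.1, counting error only), against 19.2% of regions at 0 h only (17.9 to 20.6) and 19.1% of all union regions. Fallen regions showed the opposite order: 26.3% of regions at 8 h only and 32.4% of those at 0 h only were within 25 kb of one, with 22.0% over all regions. Both shares over all regions are lowered by the 86117 single-list regions. Of these, 8.56% were within 25 kb of a risen region and 10.6% within 25 kb of a fallen one. The shares over all regions are therefore a low background for regions found in both lists of a time. The median distance from a region at 8 h only to the nearest other such region was 29.2 kb. Neighbouring regions are not independent, and the values are descriptions.

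**Figure D4:**
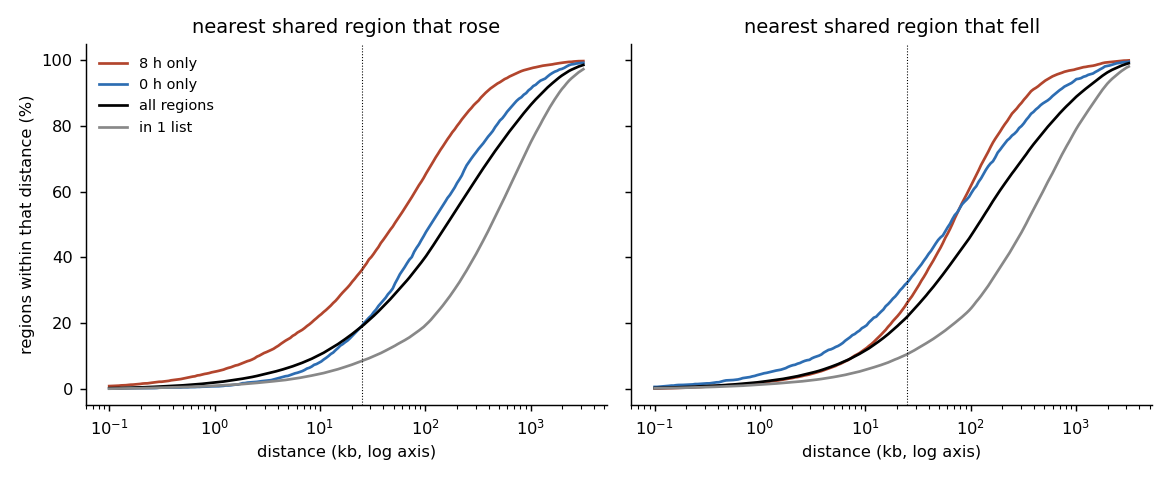
Percentage of regions (y axis) whose nearest shared region that rose (left) or fell (right) lies within a given distance (x axis, kb, log scale), for regions at 8 h only, at 0 h only, in 1 list, and for all union regions. The dotted line marks 25 kb, where 36.2% of regions at 8 h only and 19.2% of those at 0 h only have a risen neighbour.

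Entering regions were found on every chromosome, from 5.78% of the regions of chromosome 14 to 7.34% of those of chromosome 19, and they gathered in some windows. Of 2409 windows of 1 Mb with any region, the median held 4 regions at 8 h only and 470 held 0. The fullest was chromosome 6 from 17000001 to 18000000, where 32 of 121 regions were at 8 h only and 2 at 0 h only. Of its 49 shared regions, 17 rose and 0 fell. Genome-wide, 6.4% of union regions were at 8 h only, and 12.4% of shared regions rose and 15.5% fell. Chromosome 8 from 47000001 to 48000000 held 28 entering regions among 113. Of its 59 shared regions 10 rose and 8 fell, close to the genome-wide shares. Chromosome 19 from 29000001 to 30000000 held 27 among 112, and of its 50 shared regions 12 rose and 3 fell. Chromosome 12 from 74000001 to 75000000 held 26 among 129, and of 66 shared regions 20 rose and 1 fell. Chromosome 10 from 18000001 to 19000000 held 25 among 115, and of 46 shared regions 10 rose and 5 fell. The last of these windows contains the risen region at 18796925 described above. No window held more than 9 regions at 0 h only, a number reached on chromosome 6 (122000001 to 123000000), on chromosome 11 (3000001 to 4000000) and on chromosome 2 (167000001 to 168000000).

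Control libraries, which did not enter the choice of regions, listed the KO regions of 8 h more at 8 h than at 0 h. With the 6 control lists of 0 h and 8 h cut to 16572 hotspots, 0.043% and 0.017% of the regions at 8 h only were in the WT 0 h lists and 0.13% in the littermate 0 h list. At 8 h the shares were 1.24% and 1.399% in WT and 2.65% in the littermate. The mean difference was 1.70 percentage points, the share was higher at 8 h in all 3 series, and the exact two-sided permutation p was 0.10, the smallest that 3 against 3 libraries can give. For regions in all 4 lists each series likewise had the higher share after LPS, with a mean of 24.3% at 0 h to 25.4% at 8 h (1.14 points, exact permutation p = 0.10). Regions at 0 h only went the other way, from 1.16% ± 0.63 (SD, n = 3) at 0 h to 0.25% ± 0.12 at 8 h (exact permutation p = 0.10).

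When control lists were taken at their deposited length, 14.6% and 15.7% of the regions at 8 h only were in the WT 8 h lists and 48.7% in the littermate 8 h list, against 0.043%, 0.052% and 3.09% at 0 h. Those lists differ in length from 16572 to 110569 hotspots, and the leaving regions were then also more frequent at 8 h than at 0 h in each control series, so the deposited lists give no direction. Of the regions at 8 h only, 5746 (49.9%, with a Wilson 95% interval of 49.0 to 50.8) were held by no deposited control list. The same was true of 64.3% of the regions at 0 h only (2215) and of 11.1% of the regions in all 4 lists. Among entering regions the share was 24.2% for those with a mean rank of 20000 or better and 54.6% for those beyond 50000.

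**Figure D5:**
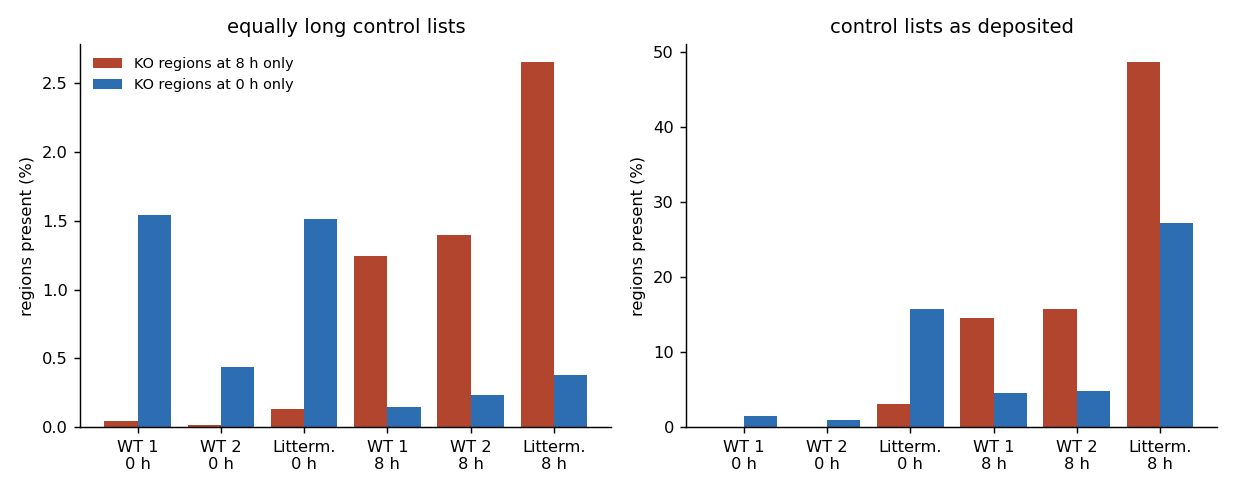
Percentage of the KO regions at 8 h only and at 0 h only (y axis) present in each control library (x axis), in control lists of 16572 hotspots each (left) and as deposited (right). At equal length the regions at 8 h only are at most at 0.13% in control lists of 0 h and at 1.24% to 2.65% at 8 h.

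Whether a rank shift differed between KO and controls was tested in the 8181 regions present in all 10 lists of 0 h and 8 h, each cut to 16572 hotspots. The limma interaction of genotype and time passed an adjusted p of 0.05 in 43 regions, 35 with a higher shift in KO (0.428%) and 8 with a lower one (0.0978%). The balance of directions did not hold: with the series as a block 155 were higher and 175 lower (330 in all). At an unadjusted p under 0.05 the counts in the 8181 regions were 368 higher and 610 lower. These are the strongest sites only, and the control libraries of 0 h were weaker than all others (Z-score at rank 15000 of 8.85 to 11.5, against 26.1 to 27.7 in controls at 8 h), so the strength of the libraries moved more with time in controls than in KO. Its part in these differences was not tested. A fit with the littermate as the only control series was also run, but it holds 1 control library per time. Its spread comes from the KO pairs alone, so regions passing in it are not counted here. Without 1 KO library the count was 22 to 26 (23 and 22 without KO 0 h replicates 1 and 2, 24 and 26 without KO 8 h replicates 1 and 2), and ranked by Z-score it was 18.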

How the data were processed

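DNase-seq hotspot lists of 4 KO libraries (2 at 0 h, 2 at 8 h) were compared, and 2 KO lists at 3 h and 9 control lists (6 of them of 0 and 8 h) served as further readouts. Per the submitters' processing notes the build was mm9 and CASAVA was used. Aligner, hotspot caller and threshold: not given in the sources used here. By column name, per the file headers, hotspots carry a position, a highest and a mean tag density (MaxD and AveD, a signal), a Z-score (a score) and a p-value, all the authors' own, called per library. Densities and Z-scores served only to rank hotspots within a list, and the deposited p-value was not used. Coordinates are printed as deposited, with a first base of 0 or 1 not given in the headers. Read depth is unknown. MaxD values are whole multiples of 1 step per list (within 0.1 steps for 100% of hotspots with fewer than 200 steps), and the inverse of the step was read as relative depth.

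Lists were restricted to chromosomes 1 to 19 and cut to equal length by MaxD (ties by AveD, then position). Hotspots sharing at least 1 bp were merged, and 1 covered bp counted as presence. Ranks were tested with limma 3.58.1 (R 4.3.3), and code ran in Python 3.11.15. Scripts were tested on simulated data. The members and lists were chosen with earlier results of these data known.

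Named were the 12 strongest regions at 8 h only, the 8 strongest at 0 h only, the 8 largest significant moves in each direction, and the windows of 1 Mb with most such regions (5 for 8 h, 3 for 0 h). Chromosome 18 was counted, but none of its regions were named.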

Additional observations from a re-analysis of the deposited data

Results flagged for a closer look

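The fall at chr2:164681610-164684317 passed the test of a difference between genotypes, but the length of the lists limited that test. In lists of 16572 hotspots KO ranks went from 1186 and 1053 at 0 h to 12858 and 12789 at 8 h. WT ranks went from 7682 and 6928 to 9868 and 10724, and the littermate's rank from 15698 to 9109. The limma interaction was -3.45 (SE 0.51, adjusted p = 0.0025), with a mean shift of -3.52 in KO and -0.07 in controls. The control libraries of 0 h were weaker than the others, and the part of this in the difference was not tested. Only regions in all 10 lists were tested, so no rank could fall past 16572. Controls started at 7682, 6928 and 15698 and had less room to fall than KO. A control fall as large as that of KO could not have been seen, so the test cannot decide whether the fall is particular to KO. Of the 16 shared regions with the largest moves, 3 were in all 10 lists and could be tested, and the interaction of the other 2 (limma adjusted p = 0.14 and 0.26) did not pass.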

How the results depend on the processing

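With lists of 0.5 times the length, 5375 of 65964 union regions were at 8 h only, against 11512 of 179958 at full length. Of the 39354 shared regions tested there, 6371 moved down, against 9571 of 61659. The lower count of moves down thus came with fewer regions tested. Bins of 500 bp gave 37590 at 8 h only and 9402 at 0 h only. With 1 library left out, 15169 to 29962 regions were at 8 h only and 4962 to 30951 at 0 h only, and the balance turned towards 0 h without either 0 h library, as a single 0 h list also brings in its single-list regions. With 1 replicate number alone the counts were 36586 and 34088 without replicate 1, and 35251 and 33642 without replicate 2, where equal length largely fixes the balance. Leaving out 1 library gave 4841 to 8446 moves up and 4351 to 10683 moves down. Without KO 8 h replicate 2 the moves up numbered 4841 and the moves down 4351. Without KO 8 h replicate 1 there were 5331 and 5234. Here the lone library of an arm is assumed to vary like the pair. The replicate numbers did not pair the libraries (correlation of deviations -0.021 over 61659 regions), and with replicate number as a block 7968 moved up and 10220 down. No paired analysis was possible for counts of presence because they come from no test. The KO and control difference passed in 18 regions when ranked by Z-score, in 5710 with the littermate alone, in 330 with the series as a block (added after the data were seen, as were centring and leaving out the start of chromosome 11), and in 22 to 26 with 1 KO library left out. The share of entering regions in both 3 h lists was 44.5% with 50% of a region covered. The control difference kept its direction in all 6 alternatives. Its sign was nearly fixed where 1 series was left out, since each series was higher at 8 h. The deposited control lists were another of the 6, and they give no direction. All other alternatives left counts within a factor of 1.5. All named regions of the presence classes kept their class, but their mean ranks moved by more than the replicate SD in 32 comparisons, nearly all by Z-score or mean density, and by less in 88.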

Other observations

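Some of the sites with the largest changes between 0 h and 8 h in KO were held by no control list at any time, as deposited. They were picked after their values were seen, and a site below the threshold of the shorter control lists cannot be told apart from a closed one. Of the 7645 risen regions 548 (7.17%) were in no control list, below the shares of 10.1% for fallen regions and of the 5332 among 44443 other shared regions. Besides the chromosome 8 region at 106644626, the largest moves up among them were at chr9:71250998-71254072 (ranks 17748 and 18270 at 0 h, 1679 and 2230 at 3 h, 1176 and 1762 at 8 h) and chr8:32410947-32413068 (35088 and 34013, 16055 and 11291, and 4269 and 3250). Next were chr12:32841089-32843055 (20988 and 20908 at 0 h, 2346 and 2221 at 8 h) and chr10:67051573-67053749 (53651 and 53718 at 0 h, 6268 and 6922 at 8 h).

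Among entering regions in no control list, the strongest after the chromosome 1 region at 135188037 and the chromosome 9 region at 66012849 were at chr12:86862210-86863357 (ranks 35076 and 39481 at 3 h, 9572 and 8130 at 8 h), chr11:69430088-69431008 (10082 and 10472 at 3 h, 7306 and 10467 at 8 h) and chr2:122086914-122088463 (61564 and 33410 at 3 h, 11231 and 8423 at 8 h). In the first and the last of these, both 8 h ranks were better than both 3 h ranks, and in the chromosome 11 region the times overlapped.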
